A study of Mus musculus with 50 samples.

Results

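The genes described here encode the subunits of oxidative phosphorylation, from both the nuclear and the mitochondrial genome, in cultured mouse developing oligodendrocytes. Members were chosen by name among protein-coding genes. The nuclear names were the Ndufa, Ndufb, Ndufc, Ndufs and Ndufv, Sdha to Sdhd, Uqcr, Cox4 to Cox8 and Atp5 series. The mitochondrial names were mt-Nd, mt-Co, mt-Cytb and mt-Atp. A mean of at least 1 CPM (counts scaled to the library's total) over all 50 libraries was also required. Mean CPM over all libraries use this scaling throughout. CPM of libraries and groups, and CPM per kb, are scaled to the library's TMM size instead. Of the 39056 genes in the table, 106 matched by name, 10 lay below the CPM minimum and 96 were members. The members are 86 nuclear genes (36 for complex I, 4 for II, 8 for III, 13 for IV, 16 for V, 1 associated with complex V and 8 Ndufaf assembly factors, which the name pattern also takes) and 10 mitochondrially encoded genes (6 for complex I, 1 for III, 3 for IV). Of those below the minimum, mt-Atp6 had a mean of 0.805 CPM and Cox6a2 0.483 CPM, and the lowest member was Cox6b2 at 1.11 CPM.

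The cells came from mice on the C57BL/6 background. Oligodendrocyte precursors were purified by immunopanning from the cortex of 6-day-old pups, passaged 2 times and left to differentiate for 12 to 14 h. Cells of wild-type mice and of mice homozygous for a null allele of Nrf2 (Nfe2l2, a transcription factor of the oxidative stress response) were then left untreated, given interferon-gamma (IFN-γ, 200 U/ml, an inflammatory cytokine) or given thapsigargin, which blocks the pump that loads calcium into the endoplasmic reticulum. The thapsigargin dose is labelled as 200 uM. Untreated and IFN-γ cells were taken at 1, 8, 24 and 48 h and thapsigargin cells at 1 and 8 h, which makes 20 groups of 2 wild-type or 3 Nrf2 -/- libraries. By label, the null allele is present in every cell of the mutant cultures. The library labelled Nrf2 -/- untreated 8 h replicate 3, however, held Nfe2l2 reads within the wild-type range, as given below. A tissue tag that reads whole brain goes against the protocol of cultured cells.

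The respiratory chain passes electrons from NADH (complex I) and succinate (complex II) through complex III to complex IV, which reduces oxygen, and complex V uses the resulting proton gradient to make ATP. Complexes I, III, IV and V combine a few subunits encoded by mitochondrial DNA with many encoded in the nucleus, whereas complex II is wholly nuclear. Oligodendrocytes need ATP and carbon for myelin lipid synthesis as they mature.

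Libraries held 32.3 to 54.7 M counted reads (median 36 M), and 16460 genes were tested in 1 edgeR quasi-likelihood model with Benjamini-Hochberg adjustment, called at an adjusted p below 0.05. Unless a genotype is named, a comparison is the mean of both genotypes, 5 libraries against 5. Mature oligodendrocyte markers of untreated cells summed to between 3904 and 5123 CPM at 1 h and to between 35290 and 38850 CPM at 48 h. Summed microglia markers stayed between 1.04 and 7.62 CPM, endothelial and mural markers between 0.057 and 1.23 CPM, astrocyte markers between 131 and 472 CPM and neuron markers between 715.6 and 1676 CPM over all libraries. In these bulk samples fewer cells of a type and less RNA per cell cannot be told apart. Nothing in the labels ties replicates to separate cultures, so the p-values measure only the spread between libraries, which may be technical. The library labelled Nrf2 -/- untreated 8 h replicate 3 had 7.62 CPM of Nfe2l2, within the wild-type range of that group (5.12 to 10.1 CPM), against 0.0973 to 0.859 CPM in the other Nrf2 -/- libraries. Counts over the nuclear members at 8 h, and those by complex with thapsigargin, are therefore also given without it. Wild-type untreated 48 h replicate 2 stood apart in mitochondrial transcripts, and the counts over all members in IFN-γ at 48 h and in the untreated steps to 48 h are given with and without it.

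Per kilobase of annotated exon in the gene table, mt-Co1, the mitochondrial catalytic subunit of complex IV, was far above the other members at 3919 CPM per kb. The mitochondrial complex I gene mt-Nd1 followed at 492.7 and mt-Cytb, the cytochrome b of complex III, at 375.6. This order is limited to the gene table, where several mitochondrial genes had few counts. In the deposited isoform table of estimated counts mt-Co3 (2528 estimated CPM, 784 exonic bases), mt-Atp6 (520.8, 681) and mt-Co2 (481.7, 684) stood above mt-Nd1 (425.4, 957). Among nuclear genes Atp5a1, the alpha subunit of the complex V catalytic head, stood at 304.1 CPM per kb, Cox6b1, a complex IV subunit on the intermembrane-space side, at 303.8, Cox8a at 289.8, Atp5b, the catalytic beta subunit, at 254.9 and Cox6a1 at 247.5. Isoforms known from heart, muscle or testis were low: Cox6a2, Cox7a1, Cox7b2, Cox8b, Cox8c and the lung isoform Cox4i2 were below 1 CPM, while Cox4i1, Cox6a1, Cox7a2 and Cox8a carried the signal of their sets.

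Several mitochondrial genes had few counts in the gene table. All 50-base stretches of mt-Co2, 99.9% of those of mt-Co3 and 98.0% of those of mt-Nd3 also occur in another annotated gene, and these 3 genes had mean levels of 2.07, 4.65 and 1.47 CPM. In the separately deposited isoform table, which holds estimated counts, they stood at 481.7, 2528 and 296.9 estimated CPM. In the same table mt-Atp6 and mt-Atp8, the mitochondrial subunits of complex V, reached 520.8 and 51.5 estimated CPM, although mt-Atp8, at 0.184 CPM in the gene table, shares 0% of its stretches. The genes mt-Nd1, mt-Nd2, mt-Nd5, mt-Nd6 and mt-Cytb share under 10% of their stretches. Gene-table and isoform-table levels lay close together for mt-Nd1 (475.7 against 425.4), mt-Cytb (432.8 against 395.3), mt-Nd2 (72.48 against 70.78) and mt-Nd5 (133.1 against 142.5). They lay further apart for mt-Nd6 (16.72 against 21.95). For mt-Co1 51.1% of the stretches were shared (6070 against 6692), and for mt-Nd4 62.2%. Counts over the 10 mitochondrial members below include mt-Co2, mt-Co3, mt-Nd3 and mt-Nd4, so counts over the 5 with under 10% shared are given beside them.

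**Figure D1:**
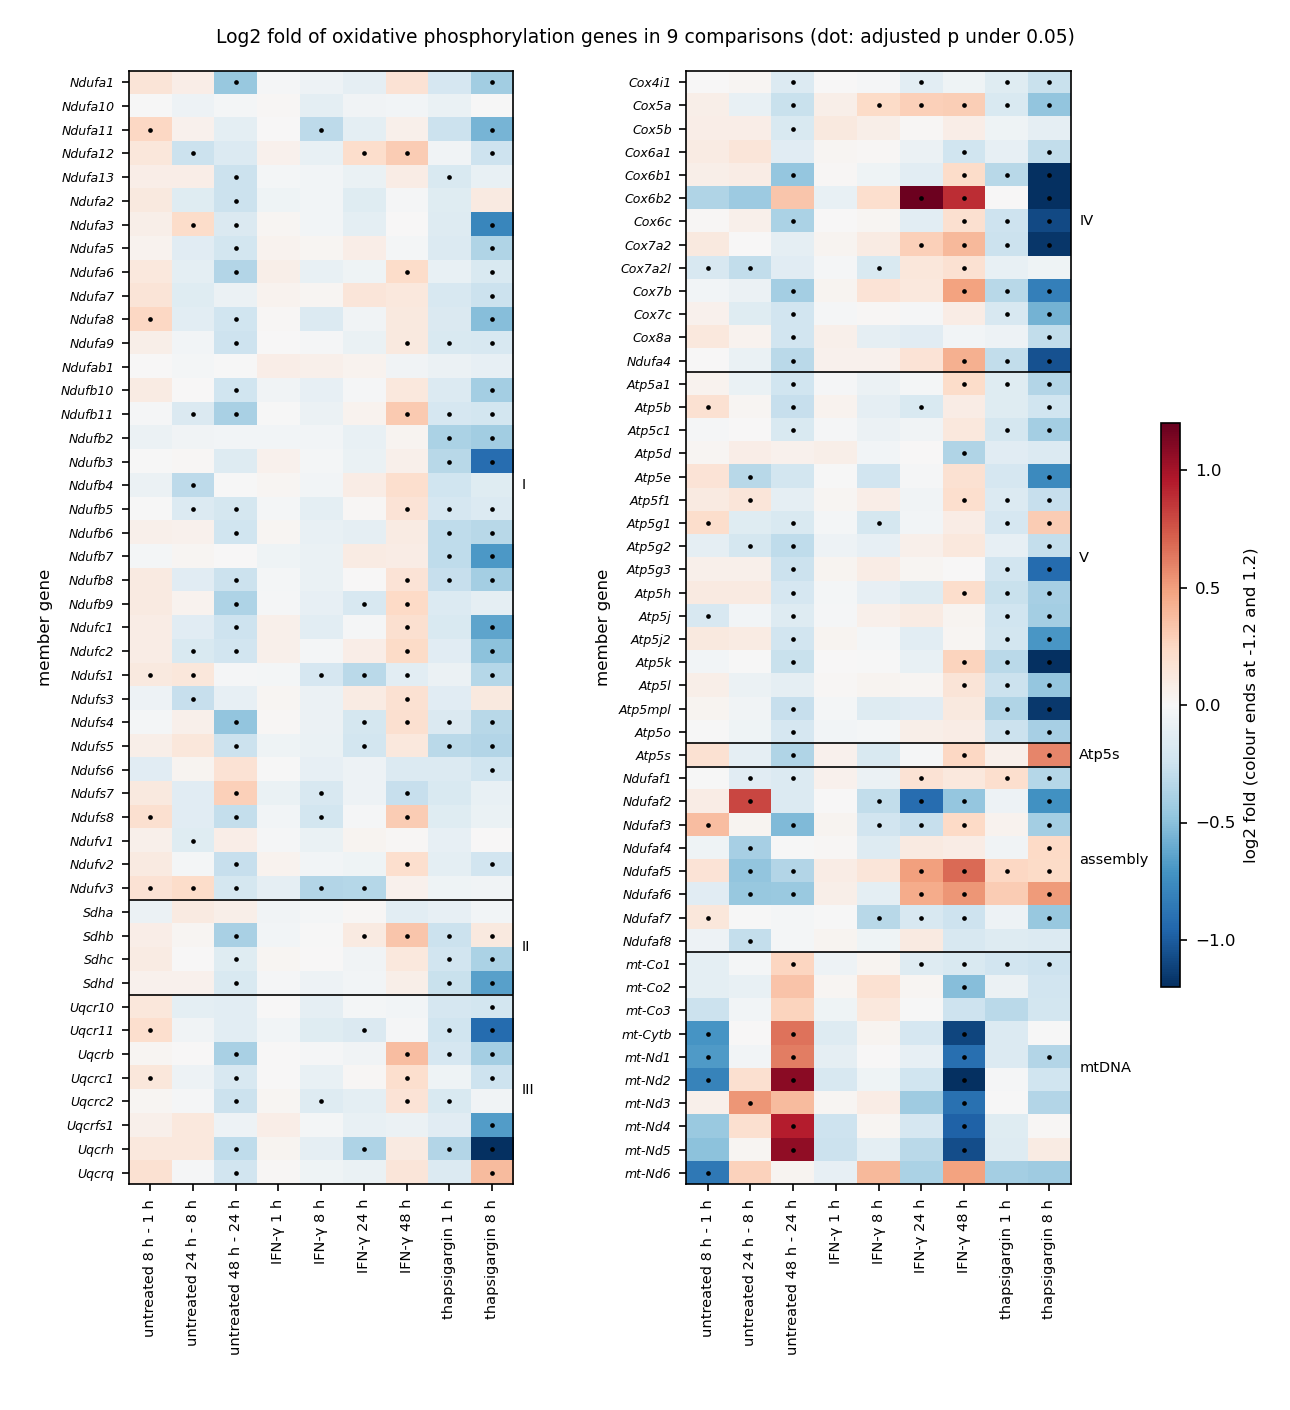
Log2 fold of the members shown (rows, by complex, mitochondrial genes last) in 9 comparisons (columns: untreated steps, IFN-γ and thapsigargin against untreated at each hour), with a dot where the edgeR adjusted p was under 0.05 and colours ending at -1.2 and 1.2. Most nuclear rows are blue with thapsigargin at 8 h, and most mitochondrial rows are blue with IFN-γ at 48 h.

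Most nuclear subunit transcripts were lower after 8 h of thapsigargin. Of the 86 nuclear members 62 fell, 7 rose and 17 did not pass, with a median log2 fold of -0.34. Among all tested genes 32.9% were called lower and 34.3% higher, with a median of 0.01. In 49 nuclear members every thapsigargin library lay below every untreated library, as in 25.2% of all genes, and in 6 every one lay above (26.3%). Summed over the nuclear members, untreated libraries at 8 h held 9055 to 10570 CPM (median 10380) and thapsigargin libraries 7088 to 8419 CPM (median 8058), so that the ranges did not overlap. Without the Nrf2 -/- untreated library that carried Nfe2l2 reads, 63 fell and 7 rose. Summed mature oligodendrocyte markers were 6451 to 8120 CPM untreated and 2045 to 2788 CPM with thapsigargin, and progenitor markers 10160 to 10630 and 5950 to 6350 CPM. Summed neuron markers were 1584 to 1676 CPM untreated and 946.6 to 1043 CPM with thapsigargin, and astrocyte markers 282.8 to 320.2 and 131 to 144.1 CPM. Single genes did not all follow these sums. Of 6 tested neuron markers 4 were called higher and 2 lower (median log2 fold 1.06). Of 8 astrocyte markers 2 were higher and 3 lower (median -0.285), and of 10 progenitor markers 2 and 6. Malat1, a long noncoding RNA kept in the nucleus, was at 6532 to 17390 CPM untreated and 9591 to 19220 CPM with thapsigargin, which overlap. The part of the marker shifts and of Malat1 in the members' folds was not tested. With each genotype taken alone 62 fell and 2 rose in wild type (27.1% and 28.4% of all genes), and 52 fell and 8 rose in Nrf2 -/- cells (29.6% and 30.4%), a comparison that includes that library as 1 of its 3 controls.

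Of the 10 mitochondrially encoded members 2 fell with thapsigargin at 8 h and none rose, with a median log2 fold of -0.24. The share that fell was smaller than the all-gene share called lower given above. Of the 5 with under 10% shared sequence 1 fell (median -0.24). More mitochondrial members were called in the isoform table, as given in the last section. A member that was not called is not thereby shown to be unchanged. In mt-Nd1 untreated wild-type libraries held 351.7 and 412.8 CPM and Nrf2 -/- libraries 406.5, 468.2 and 430.7 CPM, and the log2 fold with thapsigargin was -0.35 ± 0.10 (SE, edgeR adjusted p = 0.00265) with overlapping libraries. For mt-Co1 it was -0.25 ± 0.06 (edgeR adjusted p = 0.000582). The values were 0.00 ± 0.15 for mt-Cytb, 0.10 ± 0.26 for mt-Nd5 and -0.24 ± 0.21 for mt-Nd2, none of which passed. The sum over the 5 unshared mitochondrial genes was 816.9 to 1129 CPM untreated and 800.6 to 965.9 CPM with thapsigargin. Its ratio to the nuclear sum was 0.0773 to 0.125 untreated and 0.0951 to 0.120 with thapsigargin, which overlap. Both untreated upper ends came from Nrf2 -/- untreated 8 h replicate 3, which carried Nfe2l2 reads. Without it the untreated sum reached 1058 CPM and the untreated ratio 0.109. All thapsigargin ratios but that of wild-type replicate 1 (0.0951) were above this, at 0.110 to 0.120.

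**Figure D2:**
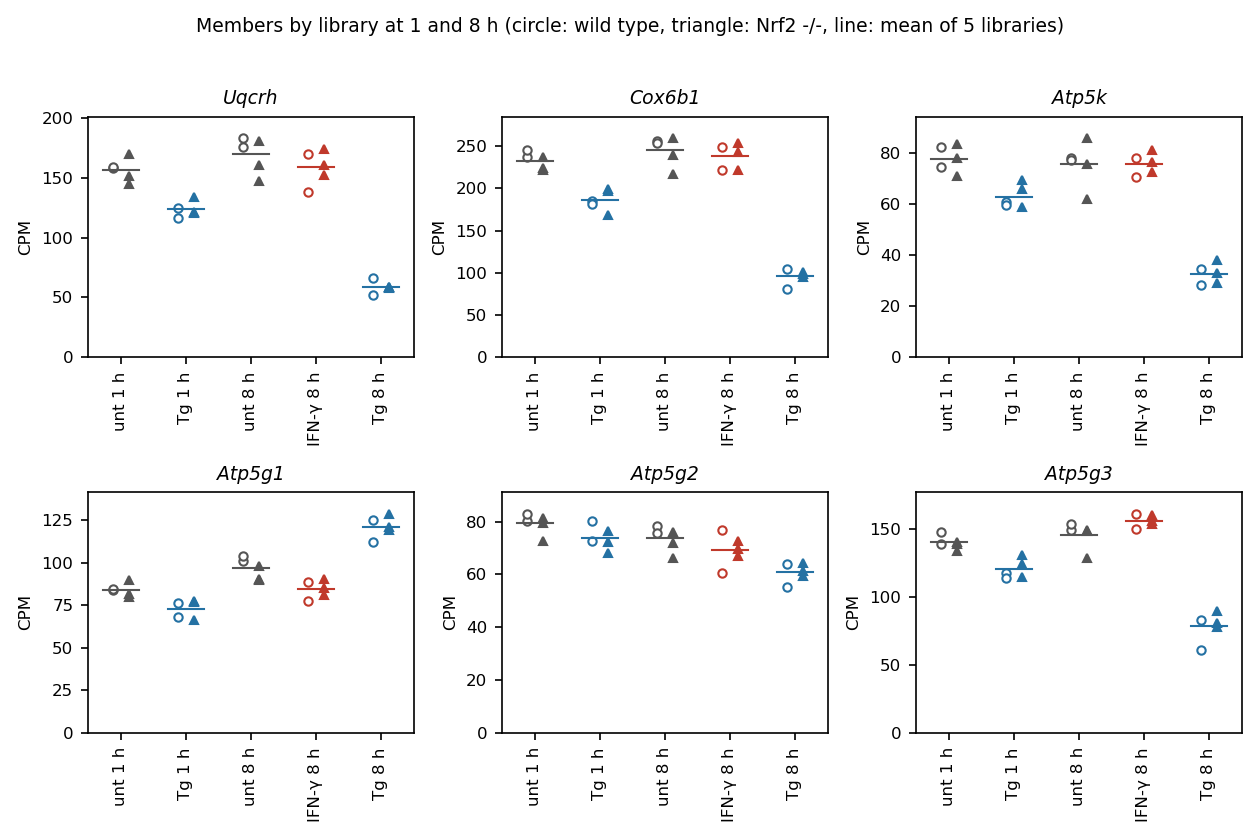
CPM per library of Uqcrh, Cox6b1, Atp5k, Atp5g1, Atp5g2 and Atp5g3 in untreated (unt), thapsigargin (Tg) and IFN-γ cells at 1 and 8 h, with circles for wild type, triangles for Nrf2 -/- and lines for the mean of 5 libraries. Uqcrh, Cox6b1, Atp5k and Atp5g3 are lower with thapsigargin at 8 h, and Atp5g1 is higher.

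By complex, in IV, 11 of 13 nuclear members fell and none rose, with a median log2 fold of -0.57. In V, 14 of 16 fell and 1 rose (median -0.40), in complex III 6 of 8 fell and 1 rose (median -0.33), in complex I 25 of 36 fell and none rose (median -0.26), and in complex II 2 of 4 fell and 1 rose (median -0.21). Of the 8 assembly factors 4 fell and 3 rose. Without the Nrf2 -/- untreated library that carried Nfe2l2 reads 26 fell in complex I, and the counts in the others were as given. Summed complex IV levels were 1695 to 2034 CPM untreated and 1123 to 1379 CPM with thapsigargin, complex V levels 3503 to 4158 and 2757 to 3329 CPM, and complex I levels 2368 to 2755 and 2000 to 2354 CPM. None of these 3 pairs of ranges overlapped. Whether the complexes differ from each other was not tested.

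Within complex III, Uqcrh and Uqcrq went opposite ways. Uqcrh (ENSMUSG00000063882.12, GRCm38 chromosome 4, 116066965 to 116075071), the acidic hinge subunit next to cytochrome c1, stood at 183.1 and 176.3 CPM in untreated wild type and 180.8, 161.1 and 147.3 CPM in untreated Nrf2 -/- cells. With thapsigargin it was 66.62 and 51.76 CPM in wild type and 58.8, 58.37 and 58.27 CPM in Nrf2 -/- cells. Every treated library was below every untreated one, with a log2 fold of -1.54 ± 0.07 (SE, edgeR adjusted p = 4.05e-21). Uqcrq, the small ubiquinone-binding protein QP-C, was at 75.29 and 73.24 CPM in wild type and 73.71, 60.94 and 53.76 CPM in Nrf2 -/- cells untreated. It reached 102.7 and 82.34 CPM and 93.66, 83.86 and 77.62 CPM with thapsigargin, above every untreated library. Its log2 fold was 0.38 ± 0.10 (edgeR adjusted p = 0.000797). The core proteins differed too, with Uqcrc1 at -0.25 ± 0.05 (called) and Uqcrc2 at -0.04 ± 0.06 (not called), and Uqcrfs1, the Rieske iron-sulfur protein, fell by 0.67.

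In complex IV, Cox6b1 (ENSMUSG00000036751.7, GRCm38 chromosome 7, 30616861 to 30626151) was at 255.6 and 253.7 CPM in wild type and 259.1, 239.4 and 216.9 CPM in Nrf2 -/- cells untreated, and at 104.8 and 81.27 CPM and 98.14, 100.5 and 95.29 CPM with thapsigargin. The treated libraries were all under the lowest untreated one, with a log2 fold of -1.37 ± 0.07 (SE, edgeR adjusted p = 2.96e-21). Cox6c, a small membrane subunit, went from between 151.0 and 199.4 CPM to between 72.97 and 94.68 CPM. Cox7a2 fell by 1.16 and Ndufa4, a subunit of complex IV despite its name, by 1.04 on the log2 scale. Other complex IV subunits moved less: Cox4i1 fell by 0.26, Cox6a1 by 0.29 and Cox8a by 0.29. Cox5b (-0.11 ± 0.07) and Cox7a2l, a supercomplex assembly factor (-0.05 ± 0.07), did not pass. The low testis isoform Cox6b2 went from between 0.88 and 1.17 CPM to between 0.066 and 0.35 CPM. Ndufa4l2, a relative of Ndufa4 that is below the membership minimum, was at 0 to 0.079 CPM untreated and 0.32 to 0.86 CPM with thapsigargin.

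In complex V the 3 genes Atp5g1, Atp5g2 and Atp5g3 differ in their targeting sequence and encode the same mature c subunit of the proton-driven ring. Atp5g3 was at 149.3 and 154.2 CPM in wild type and 149.7, 148.4 and 128.7 CPM in Nrf2 -/- cells untreated. With thapsigargin it was at 83.03 and 60.59 CPM and 81.19, 90.06 and 78.22 CPM, all lower, with a log2 fold of -0.93 ± 0.06 (SE, edgeR adjusted p = 5.36e-16). Atp5g1 went the other way, from 101.0 and 104.1 CPM and 98.37, 90.19 and 89.97 CPM to 125.0 and 112.3 CPM and 128.8, 119.6 and 120.9 CPM, without overlap (0.31 ± 0.07, edgeR adjusted p = 8.49e-05). Atp5g2 moved from between 66.19 and 78.3 CPM to between 55.33 and 64.48 CPM (-0.29 ± 0.06, edgeR adjusted p = 0.000118). Of the stretches of Atp5g2, 38.4% also occur in another annotated gene, and 11.1% of those of Atp5g1. Elsewhere in the complex Atp5k, subunit e of the dimer interface, went from between 61.96 and 85.63 CPM to between 28.38 and 37.95 CPM, and Atp5mpl, a small proteolipid, fell by 1.16. The catalytic genes Atp5a1 and Atp5b fell by 0.35 and 0.24. Atp5s, coupling factor B, rose from between 7.646 and 10.09 CPM to between 11.39 and 15.61 CPM.

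In complex I the deepest called members were Ndufb3 (-0.91 ± 0.08), Ndufa3 (-0.78 ± 0.07) and Ndufb7 (-0.69 ± 0.07), all accessory subunits. The catalytic core was mixed: Ndufs1 fell by 0.35, while Ndufv1 (0.00 ± 0.06), Ndufs7 (-0.09 ± 0.07), Ndufs8 (-0.08 ± 0.06) and Ndufs3 (0.11 ± 0.06) did not pass. Among the assembly factors Ndufaf6, Ndufaf4 and Ndufaf5 rose by 0.51, 0.24 and 0.23, and Ndufaf2 fell by 0.72, with 64% of its stretches shared. In complex II the membrane anchor Sdhd fell by 0.65, and Sdhb, the iron-sulfur subunit, rose by 0.12 (edgeR adjusted p = 0.0259), a call lost in 4 of 10 runs without 1 library (lowest 0.07, without replicate 1 of wild-type thapsigargin).

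The fold at 8 h varied with coding length. Across the 86 nuclear members Spearman's rho of the fold with coding length was 0.50, against 0.09 over 14084 tested genes with a coding length, so the shorter members were lower. Members with under 500 coding bases had a median log2 fold of -0.41 (49 genes) and the longer ones -0.24 (37 genes). Over all genes the medians were -0.21 (1227) and 0.03 (12857). At 1 h rho was 0.49 for the members and 0.23 over all genes. Genes are not independent replicates, so these correlations are descriptions.

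**Figure D3:**
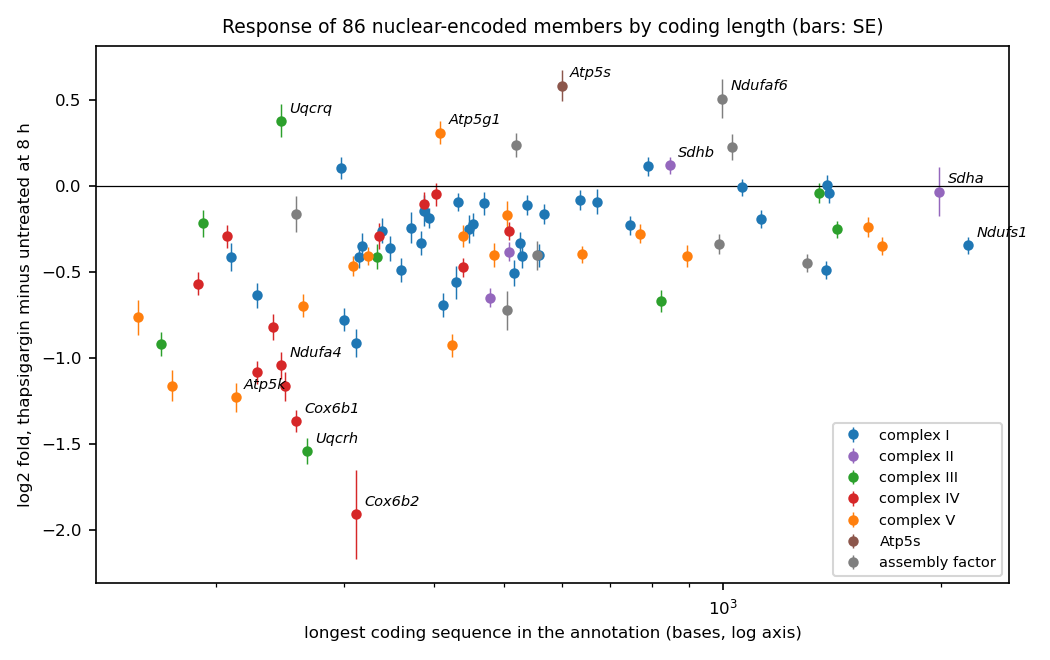
Log2 fold with thapsigargin at 8 h (vertical axis, bars are SE) against the longest annotated coding sequence in bases (horizontal log axis), with 1 point for each of the 86 nuclear members, coloured by complex. The 49 members with under 500 coding bases have a median of -0.41 and the 37 longer ones -0.24.

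Promoters are shown for 5 genes described above, Uqcrh, Cox6b1 and the c-subunit genes Atp5g1, Atp5g2 and Atp5g3, which were chosen after their values were seen. Each window is the 150 bases before the annotated start on GRCm38.p6, all on the minus strand and written 5′ to 3′ in the direction of transcription, from RefSeq. They are chr4:116075071-116075220 for Uqcrh, chr7:30626115-30626264 for Cox6b1, chr11:96075632-96075781 for Atp5g1, chr15:102671048-102671197 for Atp5g2 and chr2:73911327-73911476 for Atp5g3. Capitals mark a motif match.
Uqcrh: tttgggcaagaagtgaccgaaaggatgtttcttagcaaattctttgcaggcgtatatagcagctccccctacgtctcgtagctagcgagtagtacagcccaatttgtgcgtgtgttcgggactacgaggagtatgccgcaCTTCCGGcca
Cox6b1: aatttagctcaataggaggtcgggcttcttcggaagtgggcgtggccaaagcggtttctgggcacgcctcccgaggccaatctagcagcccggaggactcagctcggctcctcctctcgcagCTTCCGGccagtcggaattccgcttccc
Atp5g1: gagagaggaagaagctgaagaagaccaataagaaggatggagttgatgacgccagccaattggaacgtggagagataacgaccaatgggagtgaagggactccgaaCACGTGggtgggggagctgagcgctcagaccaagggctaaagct
Atp5g2: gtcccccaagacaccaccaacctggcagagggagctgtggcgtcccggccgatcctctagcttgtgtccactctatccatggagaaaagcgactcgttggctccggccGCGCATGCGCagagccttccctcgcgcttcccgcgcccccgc
Atp5g3: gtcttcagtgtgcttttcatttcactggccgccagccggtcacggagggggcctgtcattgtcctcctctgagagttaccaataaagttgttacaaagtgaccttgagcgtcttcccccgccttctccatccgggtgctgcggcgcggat
The capitals are the GABP and ETS motif CCGGAAG, read on the other strand, in Uqcrh and Cox6b1, the E-box CACGTG in Atp5g1 and the nuclear respiratory factor 1 motif GCGCATGCG in Atp5g2, and Atp5g3 held none of the 9 motifs searched. In the 300-base RefSeq windows, on both strands, 73 of the 86 nuclear members were matched. The NRF1 motif was in 10 of them (13.7%) against 1.95% of 27025 genes, CCGGAAG in 18 (24.7%) against 9.93%, and the YY1 motif AAGATGG in 12 (16.4%) against 7.28%. The interferon response motif GAAANNGAA was in 9.59% against 9.76%, and the gamma activation motif TTCNNNGAA in 6.85% against 9.55%. The antioxidant response motif TGACNNNGC was in 15.1% against 14%, and the ATF4 motif TGATGNAA in none against 4.51%. The E-box was in 8.22% against 8.09%, and the CRE motif TGACGTCA in 5.48% against 2.03%. A match is a string of letters and not a measured binding site.

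Part of the nuclear members were already lower at 1 h of thapsigargin. Of 86 nuclear members 38 fell, 2 rose and 46 did not pass (median -0.17), where 7.52% of all genes were called lower and 12.9% higher. By complex, 12 of 16 fell in complex V, 8 of 13 in IV, 4 of 8 in III, 3 of 4 in II and 11 of 36 in I. Uqcrh went from 158.0 and 159.0 CPM in wild type and 169.8, 144.8 and 151.6 CPM in Nrf2 -/- cells to 116.9 and 124.8 CPM and 121.7, 134.5 and 120.9 CPM, without overlap (-0.35 ± 0.07, edgeR adjusted p = 0.00036). Cox6b1 fell by 0.33, Atp5mpl by 0.36 and the complex I accessory subunit Ndufb2 by 0.38, and the assembly factors Ndufaf5 (0.25) and Ndufaf1 (0.20) rose, calls that were lost in 3 and 2 of 10 runs without 1 library (lowest 0.17 without wild-type thapsigargin replicate 1 for Ndufaf5 and 0.16 without Nrf2 -/- thapsigargin replicate 2 for Ndufaf1). In 38 nuclear members every thapsigargin library lay below every untreated one (5.94% of all genes), and in 2 every one lay above (10.8%). Of the mitochondrial genes mt-Co1 fell by 0.23, which was not called without wild-type untreated 1 h replicate 1, and leaving out replicate 1 of thapsigargin in Nrf2 -/- cells gave 2 calls. Without wild-type untreated 1 h replicate 2 the nuclear calls were 21 lower and 1 higher, and 19 lower and 2 higher in the estimated counts per isoform. Thapsigargin and IFN-γ share the untreated libraries of an hour. Compared directly, thapsigargin was lower than IFN-γ in 57 nuclear members at 8 h and higher in 10 (median -0.26), where 33.8% and 34.1% of all genes were called. At 1 h it was lower in 48 (10.5%) and higher in none (13.9%), and leaving out replicate 2 of wild-type IFN-γ gave 32 calls over all members.

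**Figure D4:**
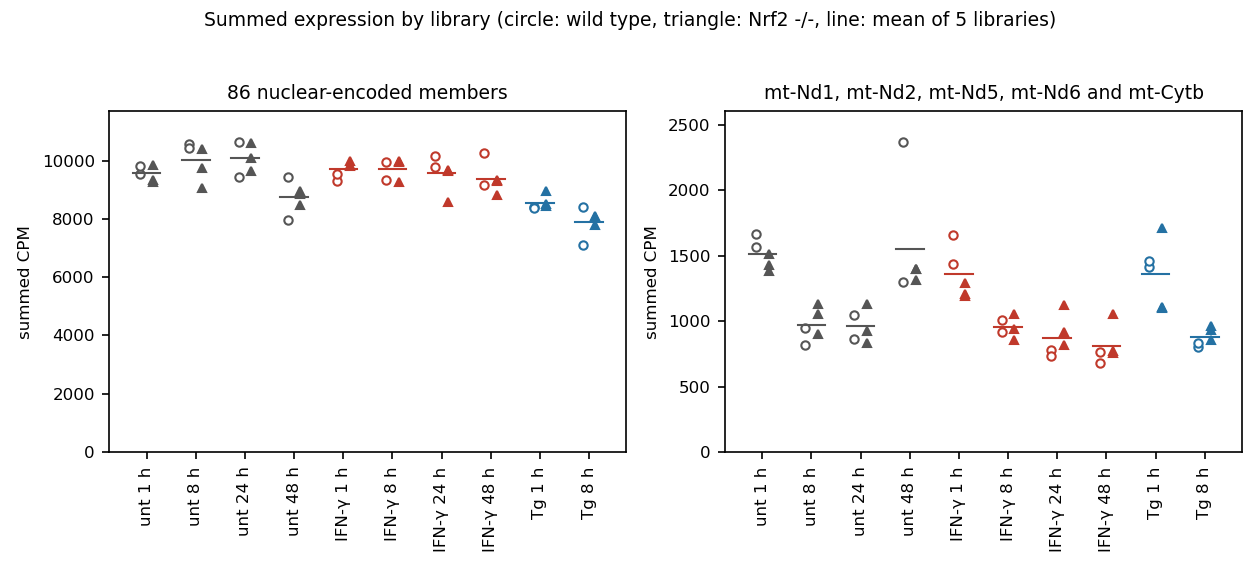
Summed CPM of the 86 nuclear members (left) and of mt-Nd1, mt-Nd2, mt-Nd5, mt-Nd6 and mt-Cytb (right) per library by treatment (unt, untreated; Tg, thapsigargin) and hour, with circles for wild type, triangles for Nrf2 -/- and lines for the mean of 5. Nuclear sums with thapsigargin at 8 h lie between 7088 and 8419 CPM, under all untreated libraries of that hour.

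Against untreated cells at 48 h, more nuclear members were higher than lower with IFN-γ, and mitochondrial members were lower. Of 86 nuclear members 34 rose and 7 fell (median 0.12), and of 10 mitochondrial members 8 fell and none rose (median -0.90). Of the 5 with under 10% shared sequence 4 fell (median -1.06). Among all genes 27.3% were called higher and 28.5% lower, and the all-gene median was within 0.025 of 0. Library ranges did not overlap for 12 nuclear members that were higher (19% of all genes) and 3 mitochondrial ones that were lower (19.5%). The sum over the 5 unshared mitochondrial genes was 1297 to 2367 CPM (median 1396) untreated and 683.5 to 1058 CPM (median 760.6) with IFN-γ, without overlap. Its ratio to the nuclear sum was 0.137 to 0.297 against 0.0666 to 0.114. At 24 h the mitochondrial sum was 830.1 to 1132 CPM untreated and 731.3 to 1126 CPM with IFN-γ. The nuclear sum was 9433 to 10620 CPM at 24 h and 7960 to 9437 CPM at 48 h untreated. With IFN-γ it was 8569 to 10150 and 8802 to 10260 CPM. The untreated 48 h libraries also enter the untreated 24 to 48 h step, so these results are not independent.

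In mt-Nd1 (ENSMUSG00000064341.1, mitochondrial positions 2751 to 3707) untreated libraries at 48 h held 572.0 and 736.1 CPM in wild type and 540.5, 574.0 and 608.3 CPM in Nrf2 -/- cells. With IFN-γ they held 247.0 and 323.3 CPM and 440.3, 363.7 and 330.1 CPM, and no library overlapped. The log2 fold was -0.90 ± 0.10 (SE, edgeR adjusted p = 2.31e-09). For mt-Cytb it was -1.10 ± 0.15 (edgeR adjusted p = 1.2e-07), for mt-Nd2 -1.31 ± 0.21, for mt-Nd5 -1.06 ± 0.26 and for mt-Nd4 -0.97 ± 0.23. The catalytic mt-Co1 changed less, from between 6295 and 8018 CPM to between 5353 and 6958 CPM (-0.19 ± 0.06, edgeR adjusted p = 0.00991, overlapping), and in the isoform table it did not pass (-0.16, edgeR adjusted p = 0.0545). In the gene table it was -0.12 and not called without replicate 1 of wild-type untreated cells. The mt-Nd6 gene lies on the other strand than the rest, and without a stated strand setting its reads and those of antisense transcripts cannot be told apart. It did not pass (0.48, edgeR adjusted p = 0.0988; -0.25 in the isoform table, not called). In the isoform table mt-Atp6, mt-Atp8 and mt-Nd4l fell by 0.72, 0.93 and 0.86.

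Wild-type untreated 48 h replicate 2 held 523.0 CPM of mt-Nd5, where the other 4 untreated libraries held 153.0 to 182.5 CPM, and 240.9 CPM of mt-Nd2 against 94.15 to 109.9 CPM. Without it 5 mitochondrial members fell (median -0.48), among them mt-Nd1 (-0.80), mt-Cytb (-0.85), mt-Nd2 (-0.89) and mt-Co1 (-0.25), while mt-Nd4 (-0.46, edgeR adjusted p = 0.0799), mt-Nd5 (-0.49, 0.0996) and mt-Co2 (-0.33, 0.163) lost it. The nuclear counts became 16 higher and 7 lower (median 0.05), and leaving out replicate 1 of wild-type IFN-γ at 48 h gave 19 and 7. Both counts of higher nuclear members are a smaller share than the all-gene share called higher with every library in. The all-gene shares of these runs are not given here. Malat1, a long noncoding RNA that is kept in the nucleus, was between 18020 and 36180 CPM untreated and 8419 and 15200 CPM with IFN-γ, and summed mature oligodendrocyte markers between 35290 and 38850 and between 15790 and 20490 CPM. Summed neuron markers were 715.6 to 814.6 CPM untreated and 1208 to 1402 CPM with IFN-γ, and of 6 tested 2 were called higher and 1 lower. The part of these shifts in the members' differences was not tested.

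**Figure D5:**
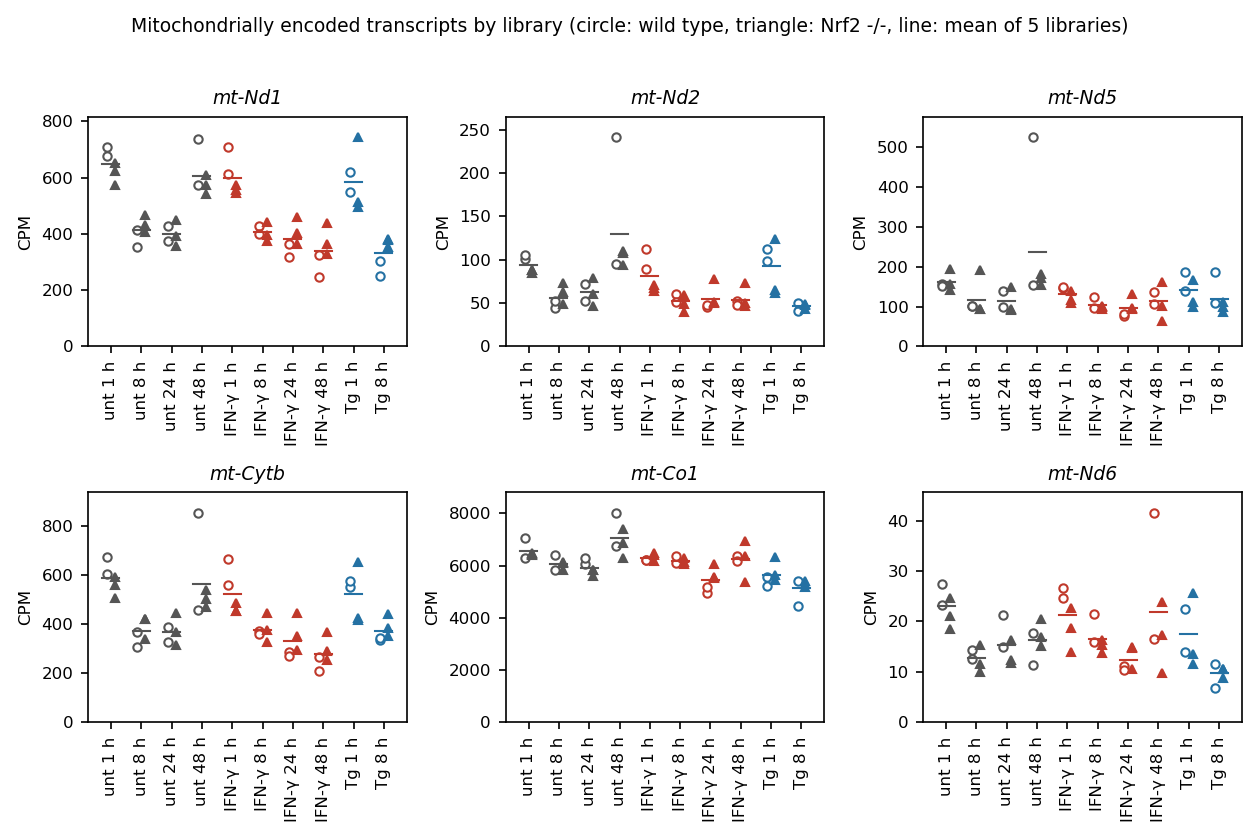
CPM per library of mt-Nd1, mt-Nd2, mt-Nd5, mt-Cytb, mt-Co1 and mt-Nd6 by treatment (unt, untreated; Tg, thapsigargin) and hour, on linear axes from 0, with circles for wild type, triangles for Nrf2 -/- and lines for the mean of 5. At 48 h IFN-γ libraries lie under untreated ones for mt-Nd1, mt-Nd2 and mt-Cytb, and 1 wild-type untreated library is far above the others for mt-Nd2 and mt-Nd5.

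The nuclear members that rose with IFN-γ at 48 h were 13 of 36 in complex I, 1 of 4 in II, 3 of 8 in III, 8 of 13 in IV and 5 of 16 in V, beside 27.3% of all genes. Without wild-type untreated 48 h replicate 2 they were 5, 1, 2, 5 and 1. Ndufa4 went from 122.9 and 91.96 CPM in wild type and 108.8, 106.6 and 104.5 CPM in Nrf2 -/- cells to 163.8 and 142.8 CPM and 139.8, 128.6 and 134.2 CPM, without overlap (0.42 ± 0.08, edgeR adjusted p = 1.01e-05). Cox7b rose by 0.48, Cox7a2 by 0.39, Uqcrb, a ubiquinone-binding subunit of complex III, by 0.37 and Sdhb by 0.33. The assembly factors Ndufaf5 (0.68), a methyltransferase-like protein, and Ndufaf6 (0.53) rose, and Cox6b2 rose from between 0.71 and 1.06 CPM to between 1.22 and 2.21 CPM. Ndufaf2 (-0.47), Atp5d, the delta subunit of complex V (-0.36), Ndufs7 (-0.27), Ndufaf7 (-0.25) and Cox6a1 (-0.24) fell, and Cox6a1 was not called without replicate 1 of wild-type untreated cells or of wild-type IFN-γ cells (-0.10).

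At earlier hours of IFN-γ fewer members were called. At 1 h no member was called by edgeR, none had an unadjusted p below 0.05 and DESeq2 called none, where 2.73% of all genes were called higher and 0.911% lower. At 8 h 1 nuclear member rose and 12 fell (19.4% and 20.4% of all genes): Cox5a, a complex IV subunit on the matrix side, rose by 0.23, and Ndufv3 (-0.35), Ndufaf7 (-0.34), Ndufa11 (-0.31) and Ndufs8 (-0.22) were among the lower ones. By complex 6 of 36 fell in I and 3 of the 8 assembly factors, with 1 each in III, IV and V. Without the library labelled Nrf2 -/- untreated 8 h replicate 3, 16 fell and 1 rose, and without wild-type untreated 8 h replicate 1, wild-type IFN-γ 8 h replicate 1 or Nrf2 -/- IFN-γ 8 h replicate 2 the calls numbered 8. At 24 h 8 nuclear members rose and 13 fell (27.6% and 28.4%), and mt-Co1 fell by 0.15, a call lost in 9 of 10 runs without 1 library. Ndufaf2 went from between 35.76 and 46.69 CPM to between 18.13 and 24.4 CPM, and Uqcrh fell by 0.37. Cox5a was at 92.01 and 85.46 CPM in wild type and 91.39, 91.97 and 97.93 CPM in Nrf2 -/- cells untreated, and at 122.5 and 114.2 CPM and 98.89, 107.9 and 108.0 CPM with IFN-γ, higher without overlap (0.29 ± 0.06, edgeR adjusted p = 2.79e-05).

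In untreated culture the genomes ran opposite ways between 24 and 48 h. Of 86 nuclear members 55 fell and 1 rose (median -0.21), and 6 of 10 mitochondrial members rose (median 0.50), where 27.4% of all genes were called higher and 25.7% lower. Of the 5 with under 10% shared sequence 4 rose (median 0.65). The untreated 48 h libraries of this step are also the controls of IFN-γ at 48 h. Cox6b1 went from between 248.5 and 271.7 CPM at 24 h to between 164.2 and 208.3 CPM at 48 h. The log2 fold was 0.62 for mt-Nd1, 0.65 for mt-Cytb and 1.08 for mt-Nd2, all called, and Ndufs7 was the nuclear member that rose (0.29). Without wild-type untreated 48 h replicate 2 the counts were 33 nuclear lower and 2 higher and 4 mitochondrial higher, with mt-Cytb at 0.39 and mt-Nd2 at 0.67. Malat1 was between 10010 and 19790 CPM at 24 h and between 18020 and 36180 CPM at 48 h. Summed neuron markers were 1319 to 1484 and 715.6 to 814.6 CPM, although of 6 tested 2 were called higher and 2 lower (median log2 fold -0.06). The part of Malat1 and of these markers was not tested. Between 1 and 8 h the mitochondrial genes mt-Nd6 (-0.86), mt-Nd2 (-0.80), mt-Cytb (-0.70) and mt-Nd1 (-0.68) fell, while 12 nuclear members rose and 2 fell (20% and 16.7% of all genes). Without wild-type untreated 1 h replicate 1 these came to 10 calls in all, and without the library labelled Nrf2 -/- untreated 8 h replicate 3 the nuclear counts were 14 higher and 1 lower, with 5 mitochondrial members lower. From 8 to 24 h 6 nuclear members rose and 15 fell (23.3% and 24.4%; 5 and 19 without that library), with Ndufaf2 at 0.80, Ndufaf5 at -0.48 and Ndufaf4 at -0.40. From 1 to 48 h 45 nuclear members fell and 6 rose (33.6% and 34.5%), and 1 mitochondrial member fell and 4 rose. Without wild-type untreated 48 h replicate 2 these were 36 and 9 nuclear members and 0 and 2 mitochondrial ones. Ndufaf6 fell by 1.04, Atp5g2 from between 72.75 and 82.95 CPM to between 46.05 and 57.1 CPM, and Cox7a2l by 0.63. Hour and library series cannot be told apart in these steps.

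No member was called between the genotypes. Averaged over hours, Nrf2 -/- minus wild type gave 0 of 96 members called by edgeR in untreated cells (0.0243% of all genes called), in IFN-γ cells (0.0547%) and in thapsigargin cells (0.51%), with 1, 5 and 4 members at an unadjusted p below 0.05, and DESeq2 called 0 in each. No member was called by edgeR in any of the 6 tests of a difference in response between genotypes, where 0% of all genes was called. At an unadjusted p below 0.05 these had 2, 0, 6 and 7 members for IFN-γ at 1, 8, 24 and 48 h. For thapsigargin at 1 and 8 h they had 1 and 5, and DESeq2 again called 0. Nrf2 -/- untreated 8 h replicate 3, which carried Nfe2l2 reads, counts as mutant in the untreated test and both 8 h differences. Without it no nuclear member was called in them. The complex I median went from 0.12 to 0.07 with IFN-γ and from 0.15 to 0.12 with thapsigargin. The median difference of the 10 mitochondrial members with IFN-γ at 48 h was 0.41 (lowest edgeR adjusted p = 0.491), and -0.13 without wild-type untreated 48 h replicate 2. Taken within 1 genotype, 7 mitochondrial members fell and 1 rose with IFN-γ at 48 h in wild type (median -1.10, with 22% of all genes lower and 21.1% higher), where that library is 1 of 2 controls, and 4 fell in Nrf2 -/- cells (median -0.56, with 22.6% lower and 22.8% higher). When replicate 2 of wild-type IFN-γ at 48 h was left out, 5 members were called in that difference, mt-Nd1 at 0.80 among them, and without wild-type thapsigargin 8 h replicate 1, 3 in the thapsigargin difference at 8 h (Ndufa5, Cox5a and Atp5g3). The same 2 runs gave 1 call each in the genotype comparisons, Ndufb2 at -0.16 with IFN-γ and Atp5g3 at 0.27 with thapsigargin.

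Other mitochondrial gene lists with thapsigargin at 8 h are read beside the 34.3% of all genes called higher and 32.9% lower. Of 17 regulators of mitochondrial biogenesis 16 rose and 1 fell (median 0.53), with Ppargc1a at 2.00, Ppargc1b at 2.53 and Perm1 at 5.67. Of 30 genes of mitochondrial DNA transcription and RNA handling 15 rose and 8 fell, with Tfam at 0.78, Polrmt at -0.24 and Mterf2 at -1.74. Of 19 mitochondrial stress and protease genes 14 rose and 4 fell, with the chaperone Hspa9 at 2.36 and the protease Lonp1 at 0.71. Of 77 mitochondrial ribosomal protein genes 17 rose and 34 fell, of 22 genes of the citric acid cycle 7 and 8, and of 21 glycolytic genes 7 and 13, with Hk2 at 2.40 and Aldoc at -2.53. Of 20 electron carrier and coenzyme Q genes 6 rose and 10 fell. Of 42 assembly factors outside the name pattern 16 rose and 16 fell. With IFN-γ at 48 h, where 27.3% of all genes were called higher and 28.5% lower, 35 of 77 mitochondrial ribosomal genes rose and 5 fell (median 0.14), and 8 transcription and RNA genes rose and 6 fell, among them Pnpt1, which degrades RNA in mitochondria, at 1.49, Twnk, the mitochondrial DNA helicase, at -0.69, Polrmt at -0.35 and Tfam at 0.19. From 24 to 48 h untreated, 41 of 77 mitochondrial ribosomal genes fell and 2 rose (25.7% and 27.4% of all genes).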

How the data were processed

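RNA of 50 libraries was sequenced on Illumina HiSeq. The deposited gene table holds read counts per gene and the deposited isoform table holds estimated counts; the submitters' processing notes name STAR, featureCounts, kallisto and edgeR with no version. The genome build, annotation and strand setting were not given in the sources used here. Symbols came from GENCODE M21 (GRCm38), which matched 38872 of 39056 genes, and promoters from RefSeq (GRCm38.p6). No column belonged to no sample (0). Genes were filtered by filterByExpr (minimum count 10, minimum total 15), scaled by TMM and fitted with 20 group means in edgeR 4.0.16 (R 4.3.3), with DESeq2 1.42.0 as an alternative. CPM of libraries and groups and CPM per kb use TMM library sizes. The membership minimum and mean CPM over all libraries use library totals. In 3 libraries (Nrf2 -/- 8 h replicate 2 of each treatment) the title and the genotype tag conflict, and the title was followed. The script was tested on simulated data. The members and lists were chosen with earlier results of these data known. Named in each comparison are up to 8 called nuclear members with the highest and 8 with the lowest fold, fixed mitochondrial genes and isoform sets, and up to 3 genes per list; other members were named after their values were seen, and 1 member that is counted is not reported by name here. Comparisons within a genotype, and runs without a library that stood apart, were also chosen after seeing the data. Alternatives were other scaling, filters and tools, the isoform table, the compared groups alone, the conflicting libraries left out or counted as wild type, and each library left out in turn. Depth was 32.3 to 54.7 M counts per library.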

Additional observations from a re-analysis of the deposited data

Results flagged for a closer look

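A signal appears outside the main measurement for 3 mitochondrial genes that the gene table holds below 1 CPM. In the isoform table mt-Atp6 had a mean of 521 estimated CPM, mt-Atp8 of 51.5 and mt-Nd4l of 10.4.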

How the results depend on the processing

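Counts of called members stayed within 1.5 times of the reported value in all 27 results under DESeq2, no filter and scaling without mitochondrial genes. The same held under both treatments of the conflicting libraries. No named member changed sign in an alternative where either run called it. Folds called in neither run could change sign, as for mt-Nd6 with IFN-γ at 48 h. With only the compared groups fitted, the mitochondrial count with IFN-γ was 1 at 8 h, 0 at 24 h and 5 at 48 h; with DESeq2 size factors it was 0 at 24 h. With the isoform table the thapsigargin count was 21 nuclear and 2 mitochondrial at 1 h and 4 mitochondrial at 8 h, the untreated 24 h minus 8 h count 14 and the thapsigargin minus IFN-γ count at 1 h 19. The cause was not tested. With 1 library left out, counts ranged from 8 to 17 (IFN-γ 8 h, nuclear), 0 to 1 (24 h, mitochondrial), 23 to 54 and 5 to 9 (48 h, nuclear and mitochondrial), 22 to 53 and 0 to 2 (thapsigargin 1 h), 32 to 53 (thapsigargin minus IFN-γ at 1 h), 10 to 20 (untreated 8 h minus 1 h), 39 to 76 (48 h minus 24 h), 0 to 5 and 0 to 3 (genotype difference with IFN-γ at 48 h and thapsigargin at 8 h), and 0 to 1 for the genotype in IFN-γ and in thapsigargin cells. A lone library left in a group is assumed to vary like the others. No paired analysis was possible because replicate numbers follow accession order and pair no samples. What depth limits was not tested.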
